A study of Rattus norvegicus with 79 samples.

Results

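Gene expression in white matter was compared with that in hippocampal region CA1 in the same 8 young rats (121412, 121413, 121445, 121448, 2172, 2173, 2175 and 2176), those young animals for which both a white matter and a CA1 library were sequenced. These are 16 of the 79 RNA sequencing libraries of the study, which also holds medial prefrontal cortex (mPFC) libraries and aged animals. All animals were male Fischer 344 rats, an inbred strain used in aging research, and young animals were 5 to 6 months old. Aged animals, used here for the same contrast in other rats, were 17 to 22 months old, and 9 of them had both libraries. The labels name no transgene and no drug treatment. Every rat had been tested on an operant attentional set shift task, under food restriction, and later in the water maze before the tissue was taken, so that no untrained group exists. White matter was cut next to the mPFC from coronal slices, and CA1 was dissected from a slice of the dorsal hippocampus. Each library is therefore a mixture of cell types and may include neighbouring tissue. Each library was made from messenger RNA of 1 rat and 1 region, and the 2 libraries of a rat are paired by the animal's number.

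White matter is made mainly of axons and of the glia that serve them. Oligodendrocytes wrap the axons in myelin, and astrocytes, microglia, vessels and oligodendrocyte precursors lie between them, whereas neuronal cell bodies are few. Region CA1 holds a dense layer of excitatory pyramidal neurons with their dendrites and local inhibitory neurons, together with the same kinds of glia, and is known for its part in spatial memory. In bulk tissue, fewer cells of a type and less RNA per cell cannot be told apart, and a regional difference in a transcript is a statement about the whole sample.

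The deposited tables identify genes by Ensembl number, and 0 of the 26689 numbers could be paired with a symbol from the reference table at hand. The labels of the tissues could therefore not be checked against myelin, neuronal or other cell type markers, and gene groups fixed for this comparison (myelin, astrocyte, microglia, vascular, pyramidal neuron, interneuron and others) could not be counted. Genes are described below by number, at most 2 in each direction, and what they encode is not stated. Normalized counts, which are reads on a gene divided by 1 size factor per library, were placed on a scale common to the 16 libraries, and a difference is that of log2(normalized count + 1), white matter minus CA1.

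Sequencing depth ranged from 6.92 to 14.7 M reads on genes in white matter and 5.29 to 13.8 M in CA1, where M stands for mega. White matter had 10.7 ± 2.43 M reads (SD, n = 8) and CA1 had 9.49 ± 2.34 M (SD, n = 8). The difference of 1.201 M did not pass an exact permutation test of the paired libraries (two-sided, p = 0.484, adjusted p = 0.605 over 5 library measures), and white matter was deeper in 5 of 8 rats. Without rat 121445 the difference was 0.0274 M. Reads fell on 18351 to 19591 genes in white matter and on 16772 to 19216 genes in CA1 (exact permutation p = 0.156, adjusted p = 0.260). A total of 15525 genes had reads in all 16 libraries and 4258 had none in any of them.

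The most abundant genes took a larger share of the reads in white matter. The 10 most abundant genes of each library held 5.18 to 9.09% of its reads in white matter and 3.09 to 4.47% in CA1. This share was higher in white matter in all 8 rats, by 3.96 percentage points on average (exact permutation p = 0.00781, the smallest that 8 pairs can give, adjusted p = 0.0195). Within the rat numbers 121412 to 121448 the mean difference was 2.86 points, and within the numbers 2172 to 2176 it was 5.05 points, with all 4 rats of each series higher in white matter, where 4 pairs cannot go below p = 0.125. Without rats 121413 and 121445, of which 1 or both libraries were least like those of their region, it was 4.42 points (n = 6, exact permutation p = 0.0312, the smallest that 6 pairs can give). What separates these number series is not explained by the labels. The share of the reads on the single most abundant gene was 3.58 ± 0.776% in white matter and 0.744 ± 0.217% in CA1 (SD, n = 8 each). It also was higher in white matter in all 8 rats, by 2.84 percentage points on average (exact permutation p = 0.00781, adjusted p = 0.0195). The 10 most abundant genes include this one, so the 2 measures are not independent. The 95% Wilson intervals of these shares were at most 0.0426 percentage points wide, which covers counting error only. In contrast, the number of genes that together held 50% of the reads was 1023 ± 48.4 in white matter and 1014 ± 64.1 in CA1 (SD, n = 8 each, exact permutation p = 0.703, adjusted p = 0.703), a difference within the spread between animals.

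The same gene was the most abundant in all 8 white matter libraries and in 7 of the 8 CA1 libraries. It took 2.12 to 4.32% of the reads of a white matter library and 0.307 to 1.02% of those of a CA1 library, so the regions did not overlap. The gene was picked for its rank in white matter, and the share of all genes whose regions do not overlap is not given here. The normalized count of this gene was 338956 ± 75604 in white matter and 74691 ± 25732 in CA1 (SD, n = 8 each). The difference was 2.24 on the log2 scale (SE 0.27, limma adjusted p = 3.57e-05) in young rats, and it was 2.33 (limma adjusted p = 2.13e-06) in aged rats. In CA1 of rat 121413, another gene was the most abundant.

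**Figure D1:**
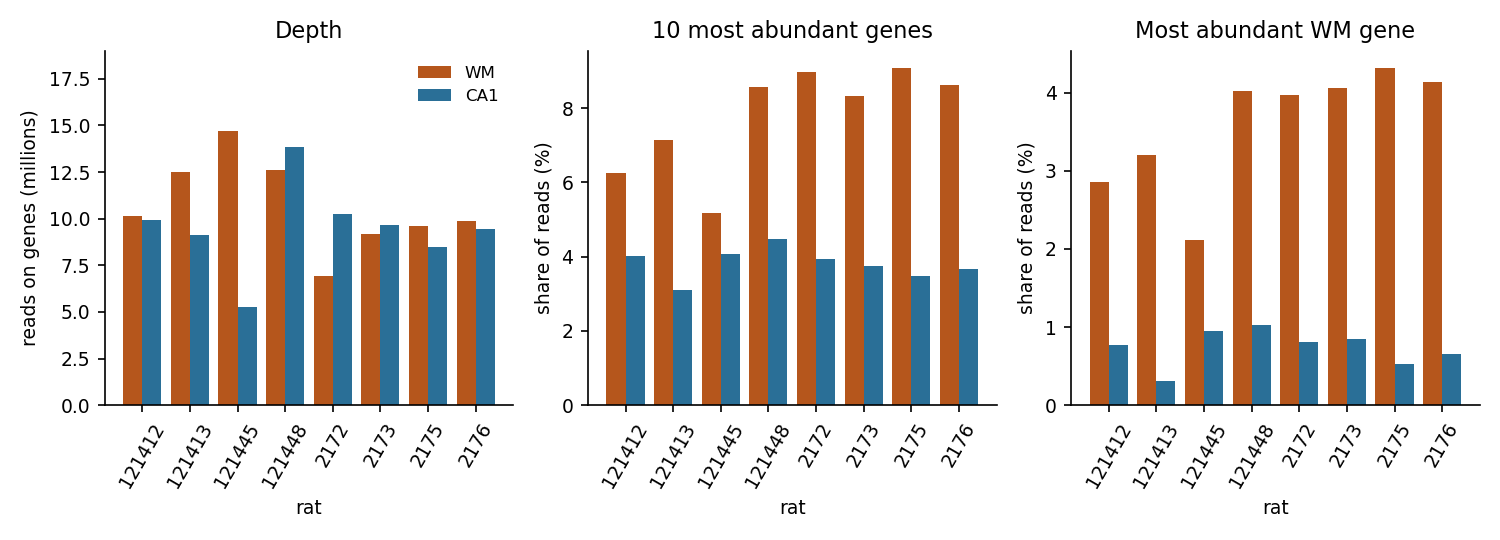
Reads on genes (M, mega reads), share of reads on the 10 most abundant genes of each library, and share on the gene most abundant in white matter, for white matter (WM) and CA1 of each of 8 young rats (1 bar per library). White matter lies above CA1 in every rat in both shares (5.18 to 9.09% against 3.09 to 4.47% for the 10 genes), but not in depth, where CA1 of rat 121445 is lowest at 5.29 M.

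Some libraries were less like the others of their region. The median correlation of a library with the other libraries of its region, across the genes tested, was 0.967 to 0.975 in 7 white matter libraries and 0.948 in white matter of rat 121445. In CA1 it was 0.919 for rat 121445, which had the fewest reads, and 0.939 for rat 121413, against 0.946 to 0.964 for the other 6 rats. White matter of rat 121413 was among the 7 libraries that were alike (0.969), and the gap of its CA1 library to the next is small. Across regions the median correlation was 0.903. The main counts, the read shares and the region by age term are therefore also given without rats 121413 and 121445, a choice made after the libraries had been compared.

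Of the genes listed, 16831 had a mean normalized count above 5 in either region and were tested. Most of them, 15907, passed the limit in both regions, while 540 passed through white matter alone and 384 through CA1 alone. The other 5600 genes with reads lay below the limit. The median difference over the genes tested was 0.03 on the log2 scale, and 90% of the differences lay between -1.33 and 1.498.

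White matter and CA1 differed in a large portion of the transcriptome. In limma with the rat as a block, 7594 genes (45.1% of those tested) had an adjusted p-value under 0.05. Expression was higher in white matter for 3965 genes (23.6%) and higher in CA1 for 3629 genes (21.6%). At least 2-fold differences were found for 1769 genes higher in white matter (10.5%) and 1360 genes higher in CA1 (8.08%). Among these, the median difference was 1.46 for white matter and -1.46 for CA1. All 8 rats showed the direction in 1262 of the former and 1051 of the latter genes. These genes had been called in the same rats, which favours a shared direction. The share of all genes tested with a shared direction in all 8 rats is not given here. Without rats 121413 and 121445 the counts were 4075 and 3904 genes, of which 3538 and 3331 were called in the same direction with all 8 rats, and 1886 and 1573 genes at 2-fold. All of these counts include genes that passed the limit on the mean count through 1 region alone. When only the 15907 genes above it in both regions were tested in the 8 rats, 3658 were higher in white matter and 3477 in CA1. At 2-fold, 1466 and 1215 of them passed.

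The number series gave different counts. In the 4 rats numbered 2172 to 2176, 3294 genes were higher in white matter and 3118 in CA1, and in the 4 rats numbered 121412 to 121448, which include rats 121413 and 121445, 1238 and 1240 genes. The part of the library quality in this was not tested.

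The largest differences lay on the CA1 side. Differences of at least 4-fold were similar in number, with 318 genes higher in white matter and 342 higher in CA1. At 8-fold there were 55 and 112 genes, at 16-fold 12 and 38, and at 32-fold 2 and 14. Some of these passed the limit on the mean count only through the region in which they are high. Among the 15907 genes above the limit in both regions, 192 genes were at least 4-fold higher in white matter and 275 in CA1, and 24 and 80 genes were so at 8-fold, 5 and 22 at 16-fold and 1 and 5 at 32-fold. The range ran from -9.25 to 5.40 on the log2 scale over all genes tested and from -6.78 to 5.01 over these 15907. Near-absence in one region was rare in either direction. A mean normalized count of at least 50 in one region and under 1 in the other was found for 1 gene in white matter and 5 genes in CA1, and limits of 20 and 2 gave 12 and 18 genes.

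The direction of large differences varied with the read count. Genes of low count can pass the limit through the region in which they are high, and of the 2482 tested genes with a mean count under 20, 888 passed through 1 region alone. Among all 2482, 466 genes were at least 2-fold higher in white matter and 187 in CA1, and among the 1594 that passed in both regions, 183 and 67 genes. Between 20 and 100 these numbers were 525 and 260, between 100 and 500 they were 436 and 416, and between 500 and 2000 they were 244 and 341. Above 2000 there were 98 and 156 genes, so that the CA1 side was the larger among abundant genes. The share of genes with an adjusted p-value under 0.05 rose from 28.6% under a mean count of 20 to 65.9% above 2000. Read counts set the precision of a test and also depend on transcript length, and their part in this shift was not tested.

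**Figure D2:**
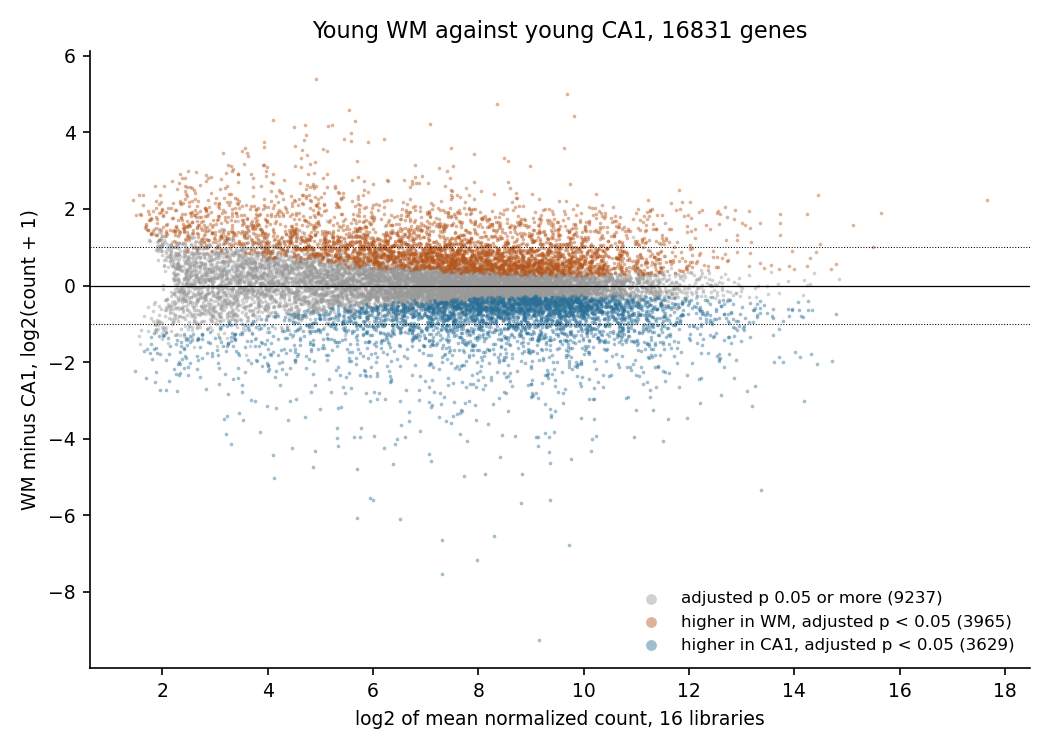
Difference between white matter (WM) and CA1 of 8 young rats on the log2(normalized count + 1) scale against the log2 of the mean normalized count, 1 point per gene (16831 genes), with dotted lines at a 2-fold difference. Genes higher in white matter (3965) and in CA1 (3629) that passed the adjusted limit of 0.05 are coloured, and the points farthest from 0 lie below it.

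The genes with the largest differences, 2 in each direction, are given in every library. They are those with an adjusted p-value under 0.05, a mean count of at least 50 and the same direction in all 8 rats. The size of their differences and the separation of the regions follow in part from this choice. The share of all genes tested whose regions do not overlap is not given here. ENSRNOG00000002549 was read almost only in CA1. Its normalized count in CA1 was 876 in rat 121412, 160 in 121413, 3441 in 121445, 865 in 121448, 868 in 2172, 944 in 2173, 995 in 2175 and 998 in 2176. In white matter it had no read in 6 libraries, and the count was 0.724 in rat 121413 and 9.63 in 121445. Over the 8 rats, 7448 reads were counted in CA1 and 16 in white matter, and the regions did not overlap. The values of the CA1 libraries fell close together except in rats 121413 and 121445. Without these rats the CA1 mean was 924 ± 63.1 (SD, n = 6) and no read was counted in white matter. The fitted difference was -9.25 on the log2 scale. This value depends on the constant added to counts of 0, from -7.24 with 5 to -11.89 with 0.1. In the mPFC of the same rats the gene was at 0 to 3.47, as low as in white matter.

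ENSRNOG00000018580 gave a like picture at lower counts. In CA1 the normalized count was 521 in rat 121412, 36.4 in 121413, 372 in 121445, 436 in 121448, 265 in 2172, 259.9 in 2173, 344 in 2175 and 290.0 in 2176. In white matter it was 0.944 in rat 121412, 0.642 in 121445, 4.11 in 2172 and 0 in the other 5 rats. The regions did not overlap, and CA1 of rat 121413 was again the lowest. The fitted difference was -7.53, and it was -5.58 with 5 added to the counts and -9.89 with 0.1. In the mPFC the gene was at 0 to 10.4. Both of these genes passed the limit on the mean count through CA1 alone, the region in which they are high. No p-value is therefore given for them here, and the separation of the regions in them is description only.

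ENSRNOG00000026953 was the gene with the largest increase in white matter under this rule. The normalized count in white matter was 1321 in rat 121412, 1024 in 121413, 7997 in 121445, 328 in 121448, 109.7 in 2172, 345 in 2173, 736 in 2175 and 997 in 2176. In CA1 of the same rats it was 23.4, 60.6, 4.09, 27.7, 61.9, 21.0, 9.37 and 26.9, in the same order. Although the regions did not overlap, the white matter values spread from 109.7 to 7997, and rat 121445 had the highest white matter and the lowest CA1 value. The difference was 5.01 (SE 0.74, limma adjusted p = 0.000159), and without rat 121445 it was 4.20. The rule chose the gene by its difference and its adjusted p-value, so neither is separate evidence. In the mPFC of these rats the count was 448 to 803, within the range of white matter, so that for this gene CA1 was the low region among the 3 sampled.

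ENSRNOG00000019317 was higher in white matter with a smaller spread. In white matter the normalized count was 635 in rat 121412, 233 in 121413, 143 in 121445, 1209 in 121448, 783 in 2172, 867 in 2173, 509 in 2175 and 648 in 2176. In CA1 it was 16.3, 112, 20.4, 24.7, 4.99, 16, 19.9 and 8.62, in the same order. Rats 121413 and 121445 had the lowest white matter values, and 121413 had the highest CA1 value, 4.55 times the next one. The difference, by which the gene was chosen, was 4.74 (SE 0.52, limma adjusted p = 1.59e-05). It was 5.68 without rats 121413 and 121445. Within the rat numbers 121412 to 121448 it was 3.64, and within the numbers 2172 to 2176 it was 5.83. In the mPFC the count was 68.8 to 129, below every white matter library of this group. For all 4 genes the direction held in every alternative that kept the gene, and for the white matter genes the call held too.

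**Figure D3:**
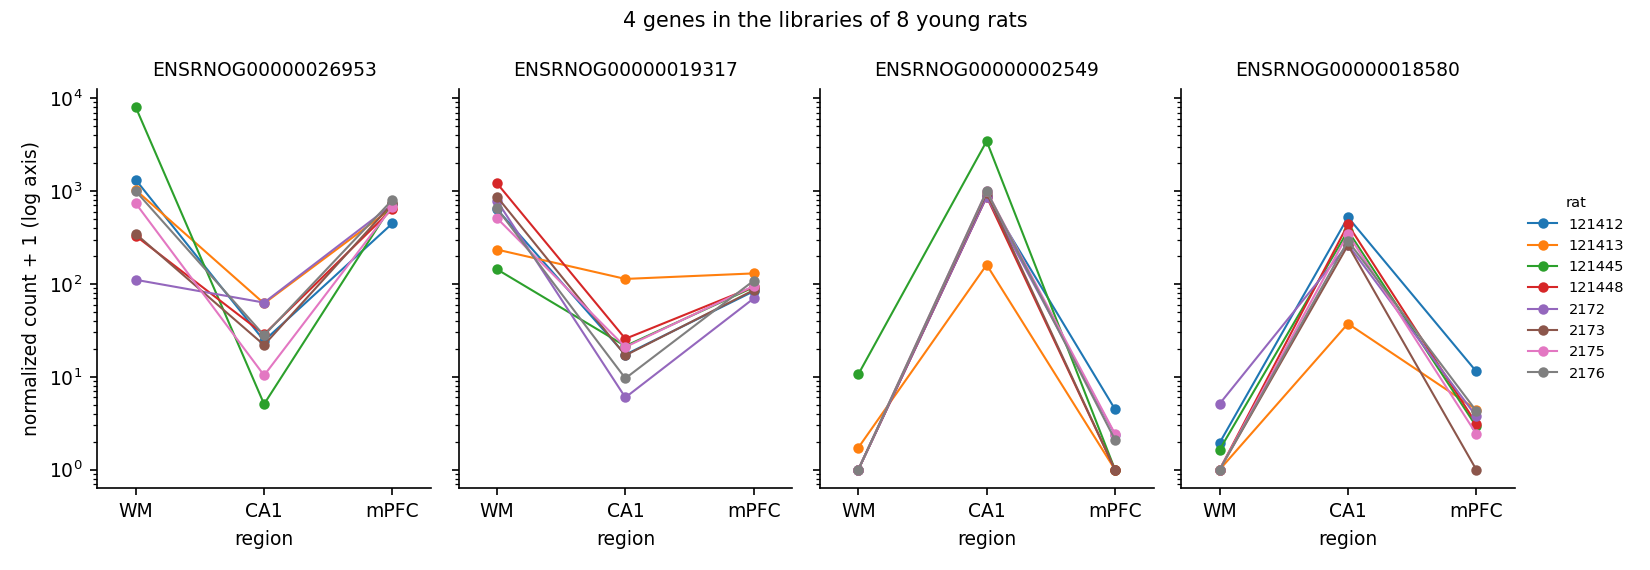
Normalized count + 1 on a log axis of the 4 described genes in white matter (WM), CA1 and the mPFC of 8 young rats, with 1 line per rat. White matter lies above CA1 in every rat for the first 2 genes and below it for the last 2, and the lines of rats 121413 and 121445 leave the bundle of the other rats in several panels.

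The same contrast was measured in 9 aged rats, which share no library with the young rats. At least 2-fold differences with an adjusted p-value under 0.05 were found for 1874 genes higher in aged white matter (11.1% of the 16818 genes tested) and 1803 genes higher in aged CA1 (10.7%). Of the 1769 genes at least 2-fold higher in young white matter, 1729 were tested in aged rats. The direction was the same for 1717 of these, and 1334 were again 2-fold higher, which is 77.2% of the young genes tested and 71.2% of the aged genes. Of the 1360 genes 2-fold higher in young CA1, 1346 were tested and 1345 had the same direction. Here 1214 were again 2-fold higher, 90.2% of the young and 67.3% of the aged genes. For the young white matter genes the median difference was 1.45 in young and 1.34 in aged rats, and for the young CA1 genes it was -1.46 and -1.68. The genes had been chosen in young rats, so the values of young rats are not independent of the choice. The share of all genes tested at both ages that kept their direction is not given here, so these counts of direction have no baseline. Across the 16578 genes tested at both ages, the differences had a correlation of 0.933, where genes are not independent replicates. The 4 genes described above had differences of -9.02 and -7.68 (the CA1 genes) and of 3.19 and 4.50 (the white matter genes) in aged rats.

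The genes that differed by at least 2-fold in aged rats were then read in each young library, since the differences of young animals had no part in their choice. Young libraries entered only through the limit on the mean count. These were 1812 genes higher in aged white matter and 1789 higher in aged CA1 that were also tested in young rats. The former held 18.9 ± 3.29% of the reads in young white matter and 6.19 ± 0.660% in young CA1, and the latter 11.2 ± 2.65% and 26.2 ± 1.90% (SD, n = 8 each). The ranges of the 2 regions did not overlap in either list (13.4 to 22.4% against 5.10 to 7.23%, and 8.34 to 15.5% against 21.9 to 27.7%). Without rats 121413 and 121445 the means were 19.9 and 6.22%, and 10.6 and 27.0%.

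The young rats differed in how clearly their libraries followed the direction of aged rats. Of the genes higher in aged white matter, 85.4% were higher in white matter in rats 121413 and 121445, 94.3 to 96.7% in 5 other rats and 98.0% in rat 2175. Of the genes higher in aged CA1, 76.6% were higher in CA1 in rat 121445 and 90.8% in rat 121413, against 94.1 to 98.2% in the other 6 rats. Over all genes tested, the median difference was 0.075 in rat 121445 and -0.0094 to 0.031 in the other rats. The shares of all genes in each direction are not given here. The median difference of the white matter genes was lowest in rat 121412 (1.06) and highest in rat 2175 (1.78), and that of the CA1 genes ran from -0.81 in rat 121445 to -1.77 in rat 2172.

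The mean level of these lists placed single libraries at the edge of their own region's group, on the side that faces the other region. In white matter, the genes higher in aged CA1 had a mean log2 value of 7.25 in rats 121412 and 121445, against 6.46 to 6.86 in the other 6 rats, and in CA1 of the 8 rats it was 7.96 to 8.46. The same white matter libraries had the lowest mean for the genes higher in aged white matter (6.69 and 6.603, against 6.86 to 7.08). In CA1, rat 121413 had the highest mean for the white matter genes (5.79, against 5.13 to 5.61) and the lowest for the CA1 genes (7.96, against 8.22 to 8.46). CA1 of rat 121413 was the lowest CA1 library in 35.4% of the CA1 genes, against 14.4% of all genes tested, and the highest in 27.9% of the white matter genes, against 13.9% of all. White matter of rat 121445 was the lowest white matter library in 45.3% of the white matter genes, against 20.9% of all, and the highest in 44.7% of the CA1 genes, against 21.3% of all. White matter of rat 121412 was the highest in 27.7% of the CA1 genes, against 11.6% of all, and the lowest in 17.9% of the white matter genes, against 12.5% of all. On the other side, white matter of rat 2172 was the lowest in 34.3% of the CA1 genes (19.9% of all) and the highest in 26.7% of the white matter genes (20.4% of all). That of rat 2175 was the lowest in 19.6% of the CA1 genes (12.1% of all) and the highest in 23.6% of the white matter genes (13.0% of all). CA1 of rat 121445 was the lowest in 31.3% of the white matter genes, near its 26.8% of all genes. How much neighbouring tissue these libraries held was not tested.

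**Figure D4:**
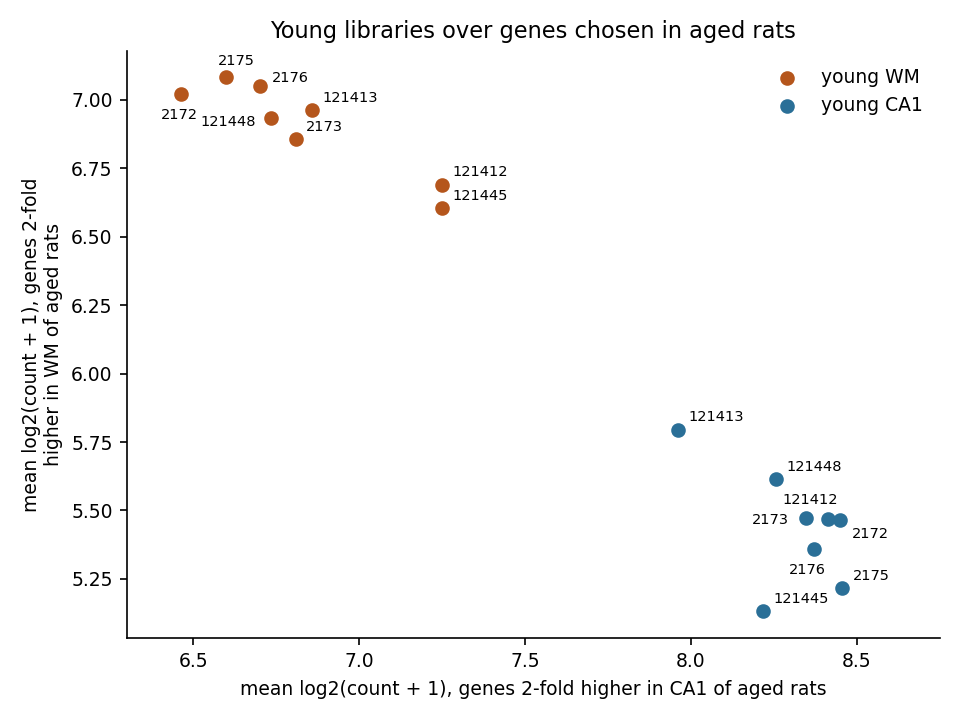
Mean log2(normalized count + 1) of 1812 genes at least 2-fold higher in white matter of aged rats against that of 1789 genes at least 2-fold higher in CA1 of aged rats, in the 16 young libraries (WM, white matter), labelled by rat. The regions form separate groups, with white matter of rats 121412 and 121445 and CA1 of rat 121413 on the sides that face the other region.

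The spread between rats was larger in CA1. Over 12564 genes with a mean count of at least 50, the median SD of the log2 values was 0.27 in white matter and 0.38 in CA1. Without rats 121413 and 121445 it was 0.25 and 0.31. An SD above 1 was found for 130 genes in white matter and 306 genes in CA1, and for 42 and 117 genes without these rats. Of the genes at least 2-fold higher in white matter with a mean count of at least 50, 27 of 1008 (2.68%) had an SD above 1 in white matter, against 1.03% of all 12564 genes. Of those 2-fold higher in CA1, 51 of 1051 (4.85%) had an SD above 1 in CA1, against 2.44% of all. No test was made of the difference in spread.

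Whether the regional difference itself differed between young and aged rats was tested with a region by age term over the 34 libraries of the 17 rats. The difference between white matter and CA1 was higher in aged rats for 2 of 16824 genes (0.0119%) and lower for 0 genes (0%) in limma with the same limit on the adjusted p-value. An unadjusted p-value under 0.05 was found for 278 and 464 genes, together 4.41% of those tested, where 5% would pass with no difference at all. The edgeR quasi-likelihood test gave 1 and 0 genes. Both genes were chosen for description after their values had been seen, and both were among the genes lower in young white matter than in young CA1.

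ENSRNOG00000012843 had 51 reads in the 8 young white matter libraries together, 2 of them without a read, and 507 reads in the 9 aged ones. On the scale of the 34 libraries, its normalized count in white matter was 0 to 12.2 in young rats, with a median of 5.34, and 38.9 to 68.8 in aged rats, with a median of 52.4, so that the ages did not overlap. In CA1 it was 44.4 to 114 with a median of 78.3 in young rats and 51.4 to 189 with a median of 101.3 in aged rats, where the ages overlapped. The regional difference was -3.99 on the log2 scale in young rats (SE 0.41, limma adjusted p = 9.03e-06) and -0.997 in aged rats (limma adjusted p = 0.000363). The term for region by age was 3.01 (SE 0.45, limma adjusted p = 0.0221). ENSRNOG00000010516 changed side. Its count in white matter was 1.91 to 12.5 in young and 14.4 to 35.3 in aged rats, which did not overlap, and in CA1 it was 7.62 to 37.5 and 6.31 to 20.6, which did. The regional difference was -1.57 in young rats (SE 0.33, limma adjusted p = 0.00204) and 0.67 in aged rats (limma adjusted p = 0.0175). The term for region by age was 2.25 (SE 0.37, limma adjusted p = 0.0434). The call of ENSRNOG00000012843 was lost without rat 121412, 2173, 2181, 2182, 2184, 2185 or 2191, and that of ENSRNOG00000010516 without any single rat other than 2172 and 2180. The sign held each time, as is likely for genes chosen by this term. With 1 rat left out the term was 2.67 to 3.27 for ENSRNOG00000012843 and 2.07 to 2.42 for ENSRNOG00000010516. Of the 8 young rats 4 carry numbers 121412 to 121448, but of the 9 aged rats 1 does. In the 12 rats numbered 2172 to 2191 the term was 3.44 for ENSRNOG00000012843 (limma adjusted p = 0.164) and 1.67 for ENSRNOG00000010516 (limma adjusted p = 0.9999), so that neither call held. ENSRNOG00000010516 also missed the threshold in edgeR, where its term was 2.38 (edgeR adjusted p = 0.0636). Without rats 121413 and 121445, 2 genes passed, of which ENSRNOG00000012843 was 1 (limma adjusted p = 0.0328) and ENSRNOG00000010516 was not (limma adjusted p = 0.194).

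**Figure D5:**
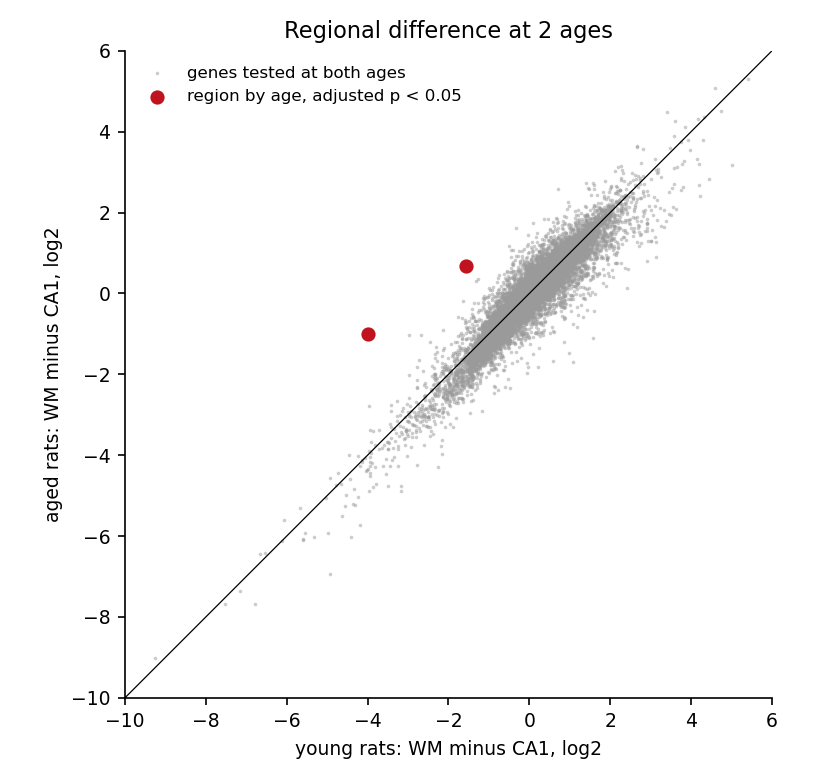
Difference between white matter (WM) and CA1 on the log2(normalized count + 1) scale in 8 young rats (horizontal) and 9 aged rats (vertical), 1 point per gene tested at both ages (16578 genes), with the line of equal values. Most points lie along the line (correlation 0.933 across genes), and the 2 genes with a region by age term past the threshold lie above it, at -3.99 and -1.57 in young rats.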

How the data were processed

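Messenger RNA libraries were sequenced on the Ion Proton. The authors discarded reads of low quality and used TopHat2 followed by Bowtie2 for alignment to rn5. Gene counts came from featureCounts (annotation Rnor_5.0.78), and DESeq was used for normalization. Versions of these tools are not given in the sources used here. The deposited signal values are thus gene counts that the authors divided by 1 size factor per library. Whole reads were recovered from the steps between values (100% of values within 0.001 reads of a whole number). The recovered factors equalled median-of-ratios factors within each table, so white matter and CA1 had been normalized apart. Reads were therefore divided by median-of-ratios factors computed over the 16 young libraries together (over 34 libraries for region by age, and over 24 for mPFC values). No column of the tables was left unmapped (0).

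Regions were compared by linear models of log2(normalized count + 1) with the rat as a block (limma 3.58.1 under R 4.3.3, empirical Bayes with trend), two-sided, with Benjamini-Hochberg adjustment over all genes with a mean count above 5 in either region. The study states no test between regions. The pairing comes from the animal, as the 2 libraries of a number are from 1 rat. Deviations of same-rat libraries from their region means correlated by -0.24 to 0.29. Single library measures were tested with exact permutation tests (sign flips within a rat). Only depth had been planned, and the other 4 measures were added. The alternatives were the deposited values, TMM factors, equal totals, pseudocounts of 0.1 and 5, other filters, edgeR 4.0.16, no block, each rat left out, each number series, and, added after the libraries were compared, rats 121413 and 121445 left out together. Figures were drawn with matplotlib 3.10.9 in Python 3.11.15.

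The animals, gene lists and tests were chosen with earlier results of these data known. Genes to be described were those with the largest difference in each direction, an adjusted p-value under 0.05, a mean count of at least 50 and 1 direction in all 8 rats, limited to 2 numbers a direction as no symbols could be given. For region by age the rule asked for the same mean count. It was met by ENSRNOG00000012843 (63.5) but not by ENSRNOG00000010516 (16.7), which is described as an exception, chosen after its values were seen. Gene lists, cell type markers, promoter motifs, sequences and genome positions were not used here, because no table paired the gene numbers with them. Nothing says that the library preparation of the regions was randomized, so region and processing order cannot be told apart.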

Additional observations from a re-analysis of the deposited data

Results flagged for a closer look

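In 7 of 24 groups of 8 young libraries 1 library lay farther from the rest than Dixon's limit, where chance marks about 1 in 20 groups of independent, normally distributed values. Several of these groups hold counts near 0 or share a library, so that this rate does not apply to them. Of these 7, 5 belong to rat 121445. In white matter its median correlation with the other libraries was 0.948 (next lowest 0.967), its normalized count of ENSRNOG00000026953 was 7997 (next highest 1321) and that of ENSRNOG00000002549 was 9.63 (next highest 0.724). In CA1 it had reads on 16772 genes (next lowest 18228) and a count of ENSRNOG00000002549 of 3441 (next highest 998). In CA1 of rat 121413 the count of ENSRNOG00000019317 was 112 (next highest 24.7), and in white matter of rat 2172 that of ENSRNOG00000018580 was 4.11 (next highest 0.944).

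The regional difference differed between young and aged rats, by the region by age term of limma, for ENSRNOG00000012843 (3.01 higher in aged rats on the log2 scale, adjusted p = 0.0221) and ENSRNOG00000010516 (2.25 higher, adjusted p = 0.0434). Neither call held in the 12 rats numbered 2172 to 2191 (3.44 with adjusted p = 0.164 and 1.67 with adjusted p = 0.9999 in limma). The call of ENSRNOG00000012843 was lost without any 1 of 7 of the 17 rats and that of ENSRNOG00000010516 without any 1 of 15. With 1 rat left out the terms were 2.67 to 3.27 and 2.07 to 2.42. The call of ENSRNOG00000010516 was also lost in edgeR, where its term was 2.38 (edgeR adjusted p = 0.0636).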

How the results depend on the processing

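Counts of genes higher in white matter and in CA1, and those at 2-fold, stayed within 1.5 times under every scaling, pseudocount, filter, tool and left-out rat, the exception being the 4 rats of the numbers 121412 to 121448, where 1238 and 1240 genes passed (821 and 719 at 2-fold). With 1 rat left out, the counts were 3345 to 4188 in white matter and 3081 to 4087 in CA1 (1580 to 1820 and 1208 to 1543 at 2-fold). Without the replicate block, 3985 and 3713 genes passed (1769 and 1364 at 2-fold), and the calls of the described genes were the same in the paired and unpaired fits. The described genes had been chosen by their calls in the paired fit. Scaling to equal totals gave 4657 and 3007 genes, with a median over all genes of 0.12. The edgeR test gave 3827 and 3594 genes, 3808 and 3563 of them also called by limma. In aged rats the counts stayed within 1.5 times under the 4 alternatives run (no block, edgeR, deposited values, rat 121437 left out). For region by age, 1 gene higher in aged rats passed with edgeR, 0 in the 12 rats of the numbers 2172 to 2191, and 0 to 2 with 1 rat left out. The count of genes lower in aged rats was 0 in each of these fits. Without rat 121412, 2173, 2181, 2182, 2184, 2185 or 2191 neither gene passed. Over the alternatives, the adjusted p-value in limma or edgeR was 0.00437 to 0.164 for ENSRNOG00000012843 and 0.0150 to 0.9999 for ENSRNOG00000010516. No value changed sign, as is likely for genes chosen by their region by age term. The depth difference was 0.0274 to 1.85 M with 1 rat left out (0.0274 M without 121445), and it turned to -0.529 M without 121413 and 121445. Size factors from housekeeping genes and the gene lists were not run, because no symbols could be paired. Genes under a mean count of 20 passed the adjusted limit least often (28.6%), and the part of depth in this was not tested.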

Other observations

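Libraries of the number series were alike to different degrees in the 2 regions. In CA1, the median correlation between libraries was 0.965 within the rats numbered 2172 to 2176, 0.940 within those numbered 121412 to 121448 and 0.942 between the series. In white matter the corresponding values were 0.973, 0.968 and 0.967. These are descriptions over 4 rats a series, and no test was made.

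CA1 of the aged rat 2185 was at the extreme of its group in the 4 genes chosen for their regional difference. In 3 of these genes the extreme CA1 value of young rats was in rat 121413. Rat 2185 had the lowest aged CA1 counts of ENSRNOG00000002549 (326, against 677 to 976 in the other 8 rats) and ENSRNOG00000018580 (78.4, against 229 to 427), and the highest counts of ENSRNOG00000019317 (201, against 6.74 to 27.5) and ENSRNOG00000026953 (145, against 13.5 to 47.2). In young CA1 the highest count of the last gene was in rat 2172 (61.9), close to that of rat 121413 (60.6). Rat 2185 also had the lowest aged CA1 counts of ENSRNOG00000012843 (51.4) and ENSRNOG00000010516 (6.31). The share of all genes in which its CA1 library was the extreme is not given here, and the aged contrast was not rerun without it. The values of this library were read after those of the young rats were known, and their cause was not tested.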
